A study of Mus musculus with 10 samples.

Results

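The comparison described here asked what the addition of Gadd45a did to chromatin accessibility in fibroblasts that carried an Oct4 mutant in place of Oct4. The library of mouse embryonic fibroblasts (MEFs) infected with viruses for Sox2, Klf4, the Oct4 mutant L80A and Gadd45a (SKO-L80A+Ga) was set against the library of MEFs with the same viruses except that for Gadd45a (SKO-L80A). These are 2 of the 10 ATAC-seq libraries of the series, and every one of the 21965 genes in the deposited table was compared. The MEFs came from E13.5 embryos with a transgene in which the Oct4 promoter drives GFP, and their strain is labelled ICR. The factors were delivered in pMXs retroviruses and the cells were kept in medium for mouse embryonic stem cells. About 50000 living cells went into each library, so every value is an average over infected and uninfected cells of the dish. Levels are quoted mainly from a further 3 conditions. They are MEFs in the same medium with vitamin C at 50 µg/ml and the viruses of SKO-L80A (SKO-L80A+Vc), MEFs with Sox2, Klf4 and unmutated Oct4 (SKO), and MEFs with a Flag control virus (Flag). Gene sets, and some levels at Sox2, were also taken from libraries labelled Sox2, Klf4, Oct4 and Oct4-L80A. A gene set was also sought in the library labelled SKO+shBrg1, which is SKO with a hairpin against Brg1. No label states the time after infection.

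Oct4, encoded by Pou5f1, is a POU-domain factor that can bind its sites in closed chromatin and is one of the factors that turn fibroblasts into pluripotent stem cells. The L80A mutant has an alanine in place of a leucine in the linker between the DNA-binding parts of the protein and is known for losing reprogramming activity. Gadd45a is a small nuclear protein induced by DNA damage and growth arrest. It has no known enzyme activity of its own, and acts through partners such as PCNA, the kinase Cdk1, the stress kinase Map3k4 and enzymes of DNA repair, among them the glycosylase Tdg, which removes oxidised methylcytosine made by Tet dioxygenases. In ATAC-seq a transposase cuts DNA that is free of nucleosomes, so the signal of a gene rises with the openness of its chromatin and says nothing of its RNA level.

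The deposited value is a density of ATAC signal for each gene, with 2 columns per library. No label states what distinguishes the columns, so they were taken as repeat measurements of 1 sample. With 1 sample per condition no test was possible; differences are described by their size, and by whether column 1 minus column 1 (pair 1) and column 2 minus column 2 (pair 2) went the same way. The values belong to the surroundings of the gene start. Of 451 gene pairs on opposite strands with starts at most 1000 bases apart, 418 had signals within 1% of each other (92.7%), against 11 of 99 pairs (11.1%) with starts 3000 to 5000 bases apart. Genes that share a start region therefore share a value and are not separate observations.

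The library with Gadd45a showed few and small differences in accessibility. Relative to the median of all genes, only Sema4f, a membrane semaphorin of the axon guidance family, and Ctsc, which encodes the lysosomal protease cathepsin C, fell at least 1.5-fold in both column pairs, and no gene rose by as much. These 2 genes are 0.0160% of the 12491 genes whose mean signal reached 6.92, the median of the whole table, in at least one of both conditions, and the higher genes are 0.00%. No gene reached 2-fold on the mean of both pairs in either direction. Of the 12491 genes, 12471 (99.8%) had a mean difference within 0.5 on the log2 scale, and the 1st and 99th percentiles were -0.36 and 0.23. The largest positive mean was 0.65 and the largest negative one -0.72.

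All differences below are on the log2(signal + 0.138) scale, with the median of all genes as the zero, unless said otherwise. The median difference of all genes before this step was -0.10 in pair 1 and -0.40 in pair 2, so signals were lower at large in SKO-L80A+Ga. The columns summed to 256029 and 231782 in SKO-L80A+Ga and to 280334 and 319763 in SKO-L80A. Across the 12491 genes the differences of pair 1 and pair 2 had a Pearson correlation of 0.05 and standard deviations of 0.16 and 0.17, so that for most genes one pair did not foretell the other. Both differences were below the median of all genes in 42.0% of these genes, above it in 13.2% and opposite in 44.8%. The excess of lower genes depended on which median was used: relative to the median of the 12491 genes themselves the shares were 25.6% below and 25.6% above. With 1 pair alone the rule gave 18 lower and 13 higher genes in pair 1, and 86 lower and 3 higher genes in pair 2.

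**Figure D1:**
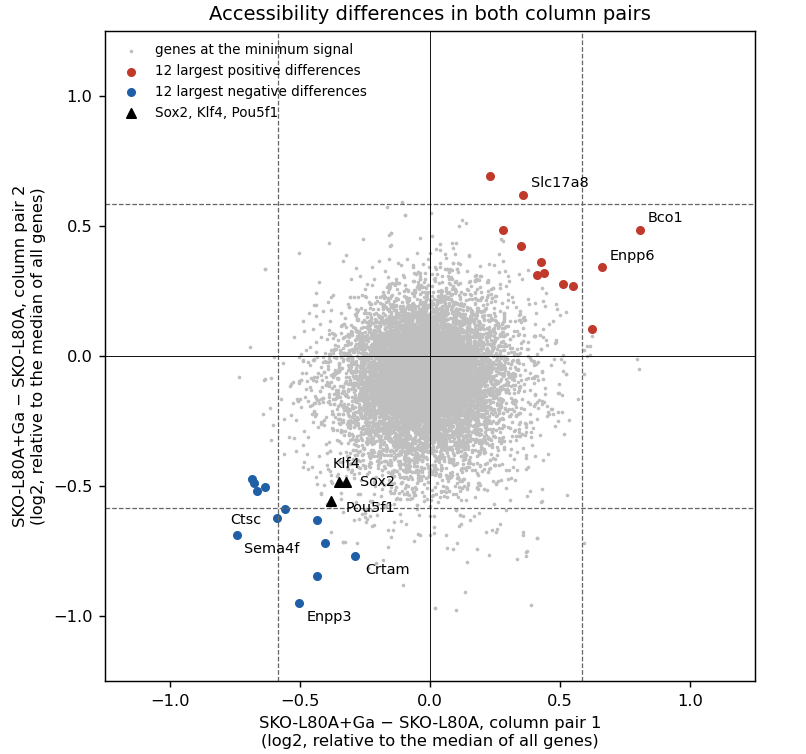
Difference between SKO-L80A+Ga and SKO-L80A in column pair 1 (horizontal) and column pair 2 (vertical), both log2 with the median of all genes at 0, for the 12491 genes at the minimum signal. Red and blue points are the 12 genes with the largest positive and negative mean, black triangles are Sox2, Klf4 and Pou5f1, and dashed lines mark 1.5-fold; Sema4f and Ctsc are the 2 genes beyond both lines on the lower side.

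The regions at the start of the 2 genes that fell, of Enpp3, which had the largest negative mean, and of Bco1, which had the largest positive mean, are printed because the value of a gene reflects this region. They run from 250 bases before to 50 bases after the start, in the direction of the gene, from the RefSeq annotation of GRCm38.p6. Capitals mark matches on either strand to the octamer ATGNAAAT bound by Oct4, the Sox motif CATTGT, the Klf motif GGGNGTGG or the AP-1 motif TGANTCA; a match is a stretch of letters and not a measured binding site.
Sema4f (chr6:82939720-82940019, minus strand): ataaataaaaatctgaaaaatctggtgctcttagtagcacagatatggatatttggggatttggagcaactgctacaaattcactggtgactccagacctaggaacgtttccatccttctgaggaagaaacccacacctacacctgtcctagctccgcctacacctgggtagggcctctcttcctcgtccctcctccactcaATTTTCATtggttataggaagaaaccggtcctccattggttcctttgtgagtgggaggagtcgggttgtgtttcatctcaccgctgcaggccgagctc
Ctsc (chr7:88277835-88278134, plus strand): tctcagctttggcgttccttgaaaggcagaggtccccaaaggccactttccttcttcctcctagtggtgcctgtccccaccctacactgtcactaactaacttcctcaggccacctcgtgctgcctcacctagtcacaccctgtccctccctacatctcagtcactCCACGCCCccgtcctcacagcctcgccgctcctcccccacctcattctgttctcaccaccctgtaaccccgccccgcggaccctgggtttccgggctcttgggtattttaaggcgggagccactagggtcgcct
Enpp3 (chr10:24836146-24836445, minus strand): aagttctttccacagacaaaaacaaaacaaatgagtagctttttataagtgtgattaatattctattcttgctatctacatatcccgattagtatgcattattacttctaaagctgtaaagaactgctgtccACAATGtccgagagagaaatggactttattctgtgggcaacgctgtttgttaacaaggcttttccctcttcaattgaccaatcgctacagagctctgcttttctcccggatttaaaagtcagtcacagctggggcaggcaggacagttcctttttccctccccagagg
Bco1 (chr8:117095615-117095914, plus strand): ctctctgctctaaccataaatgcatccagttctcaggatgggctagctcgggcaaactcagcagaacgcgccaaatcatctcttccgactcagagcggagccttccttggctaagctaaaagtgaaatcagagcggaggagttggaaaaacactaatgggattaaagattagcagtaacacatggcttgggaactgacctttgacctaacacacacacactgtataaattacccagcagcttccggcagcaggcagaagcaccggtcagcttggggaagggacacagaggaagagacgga
The Sema4f region held 1 octamer match, that of Ctsc 1 Klf match and that of Enpp3 1 Sox match, while the region of Bco1 held none of the 4 motifs. An octamer match was present in 5.67% of the 32851 start regions in the reference, a Sox match in 12.6%, a Klf match in 17.6% and an AP-1 match in 7.81%. The regions of Sema4f, Ctsc, Enpp3 and Bco1 had 7, 12, 5 and 9 CpG dinucleotides, against a median of 21 in the regions of the genes at the minimum signal.

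Sema4f (ENSMUSG00000000627, chromosome 6) had a signal of 4.46 and 5.22 in SKO-L80A+Ga, against 8.13 and 11.3 in SKO-L80A. Its difference was -0.74 in pair 1 and -0.69 in pair 2, which is 0.609 times the SKO-L80A level after allowance for the shift of all genes. The lower level was close to that of Flag, in which Sema4f had 2.27 and 4.86, and SKO had 10.0 and 9.61. Ctsc (ENSMUSG00000030560, chromosome 7) had 7.66 and 7.36 in SKO-L80A+Ga, against 12.5 and 15.1 in SKO-L80A, with differences of -0.59 and -0.62. In SKO it had 15.1 and 13.4 and in Flag 2.92 and 5.33. Both genes were thus open in SKO and in SKO-L80A, and in SKO-L80A+Ga lay between these levels and Flag. SKO-L80A+Vc had 3.76 and 4.81 at Sema4f and 9.69 and 9.26 at Ctsc, levels given for context only. Ctsc was just past the rule, at -0.588 in pair 1 where 1.5-fold is 0.585. Its call was lost with a larger pseudocount, with quantile normalisation, after removal of the trend with signal by lowess and relative to the median of the 12491 genes. When columns were paired across numbers, neither gene was called and Pomgnt2 was the gene past the rule.

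The other 10 of the 12 genes with the largest negative means did not pass the rule in both pairs. Enpp3, an ectoenzyme that splits nucleotides outside the cell, had 6.25 and 3.11 in SKO-L80A+Ga, against 9.59 and 8.13 in SKO-L80A, and its differences were -0.50 and -0.95. Crtam, an adhesion molecule of T cells, had 9.63 and 4.09 in SKO-L80A+Ga, against 12.7 and 9.37 in SKO-L80A. The columns of the conditions overlap here, and the differences of -0.29 and -0.77 rest mainly on column 2. Bbox1, which makes the last step of carnitine synthesis, had 4.13 and 4.43 in SKO-L80A+Ga, against 7.20 and 8.33 in SKO-L80A, with a mean difference of -0.58. The sodium/proton exchanger gene Slc9b2 had 6.05 and 3.51 in SKO-L80A+Ga, against 9.66 and 7.11 in SKO-L80A, with a mean of -0.57, and missed the rule in pair 1 only (-0.56). The remaining means ran from -0.64 at Mei4, a gene of meiotic recombination, through -0.59 at Pomgnt2, a glycosyltransferase of dystroglycan, -0.58 at Lamc3, a laminin chain, -0.57 at Zfyve27, a regulator of endosomes, and -0.56 at Kif7, a kinesin of Hedgehog signalling, to -0.53 at Fam193b.

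These genes were mostly ones with more accessibility in SKO than in Flag. Of the 12, 5 were called higher in SKO than in Flag by the same rule (Sema4f, Ctsc, Enpp3, Slc9b2 and Crtam), 0 were called lower, and 11 had a positive difference between SKO and Flag. Among all 12491 genes the shares were 4.65%, 0.344% and 64.1%. SKO and Flag enter no part of the comparison of SKO-L80A+Ga with SKO-L80A. The minimum signal was asked of the higher condition, which was SKO-L80A for all 12 genes. SKO-L80A shares the Sox2 and Klf4 viruses with SKO, and the part of this choice in the SKO counts was not tested. The 12 genes were picked by their values and their counts are a description. In SKO-L80A+Vc, set against the same SKO-L80A library, the mean differences of these 12 genes ran from -1.18 at Bbox1 to -0.05 at Ctsc, beside a median of -0.08 over all genes at the minimum signal. All 12 were negative there, beside 74.3% of all genes at the minimum signal, so a negative mean was not particular to SKO-L80A+Ga. The SKO-L80A library is shared by both comparisons, and its part in the low means was not tested.

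On the other side no gene passed the rule. Bco1, the enzyme that cleaves beta-carotene, came nearest, with 9.30 and 6.50 in SKO-L80A+Ga, against 5.66 and 6.12 in SKO-L80A, and differences of 0.81 and 0.49. Bco1 had 7.88 and 10.2 in Flag, and was called lower in SKO, with a mean difference of -1.04 from Flag. Enpp6, a choline-releasing phosphodiesterase, had 8.05 and 6.29 in SKO-L80A+Ga, against 5.43 and 6.56 in SKO-L80A, and Slc17a8, a vesicular glutamate transporter, had 10.5 and 7.74 in SKO-L80A+Ga, against 8.82 and 6.63 in SKO-L80A. The columns of Enpp6 and those of Slc17a8 overlap between the conditions. As deposited, before the step to the median of all genes, the pair 2 difference was negative for 7 of the 12 genes with the largest positive means (Enpp6, Dach1, Rtl8a, Dmd, Vps41, 1700122O11Rik and Btg4). The means were 0.50 at Enpp6, 0.49 at Slc17a8, 0.46 at 4930595D18Rik, 0.41 at Dach1, a nuclear corepressor, 0.40 at Rtl8a, derived from a retrotransposon, and 0.39 at both Dmd, which encodes dystrophin, and the Fc receptor gene Fcgr4. Zfp251 and Vps41, a gene of lysosomal fusion, had 0.38, and 1700122O11Rik and Btg4, a gene of maternal RNA decay, had 0.36. Of these 12 genes, 0 were called higher and 2 (Bco1 and Enpp6) called lower in SKO than in Flag, and 4 had a positive difference between SKO and Flag.

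**Figure D2:**
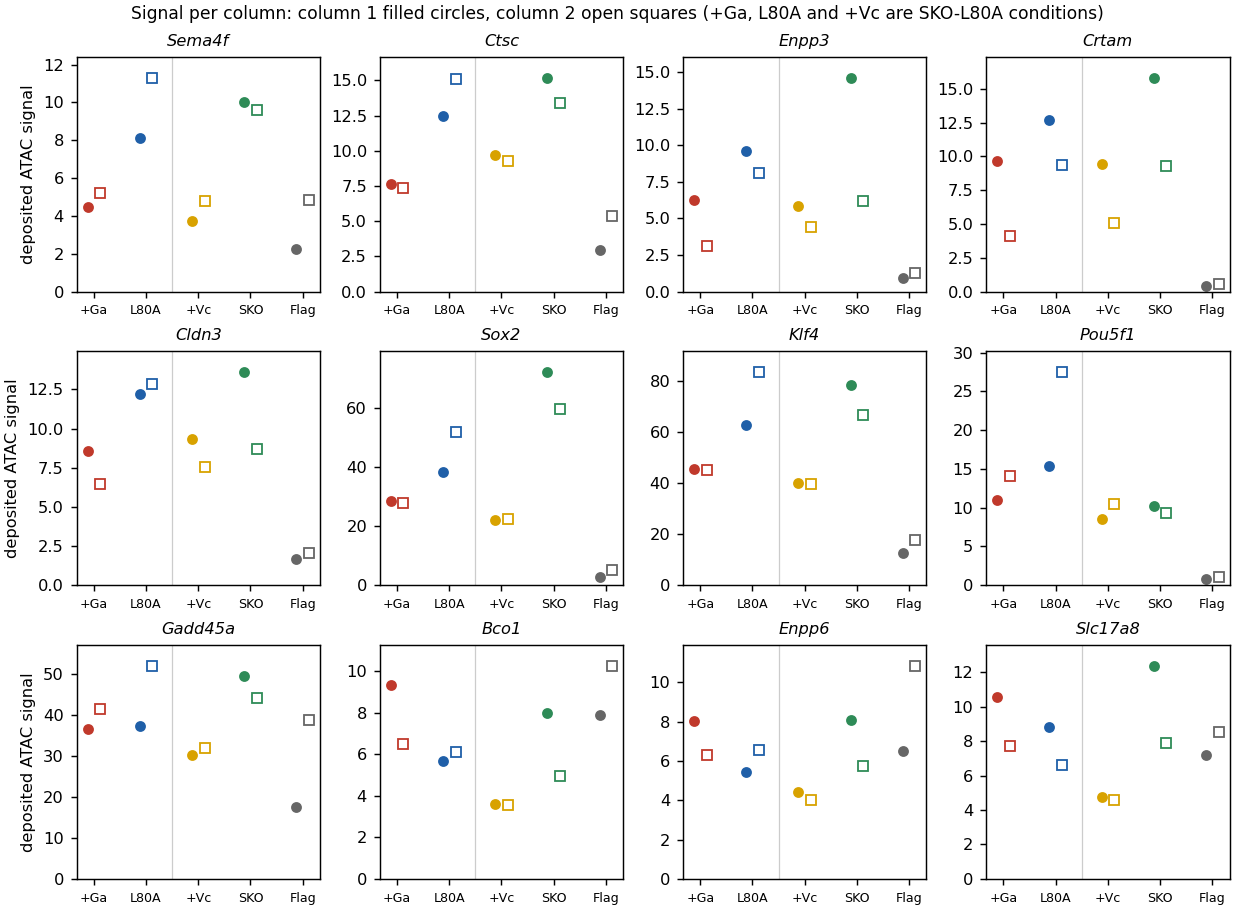
Deposited ATAC signal of 12 genes in both columns of SKO-L80A+Ga and SKO-L80A (left of the grey line) and of SKO-L80A+Vc, SKO and Flag; filled circles are column 1 and open squares column 2, and each axis starts at 0. Sema4f, Ctsc, Cldn3 and the factor genes Sox2, Klf4 and Pou5f1 were lower in both columns of SKO-L80A+Ga than in either column of SKO-L80A, while Gadd45a was not.

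The genes whose coding sequences were supplied by virus were checked next, because reads from a viral insert can count toward the gene. At Gadd45a the columns held 36.6 and 41.5 in SKO-L80A+Ga, against 37.3 and 52.1 in SKO-L80A, with a difference of 0.08 in each pair. The levels were 49.5 and 44.2 in SKO, 30.3 and 31.9 in SKO-L80A+Vc and 17.5 and 38.7 in Flag, none of which received Gadd45a. The signal of Gadd45a thus did not mark the library to which the gene was added, and the label could not be checked with it. Its relatives Gadd45b and Gadd45g had means of -0.03 and 0.07.

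The 3 factor genes that both conditions received had less signal in SKO-L80A+Ga than in SKO-L80A, though none passed the 1.5-fold rule. Sox2 had 28.6 and 28.0 in SKO-L80A+Ga, against 38.5 and 51.8 in SKO-L80A, with differences of -0.32 and -0.48. Klf4, a zinc finger factor, had 45.7 and 45.1 in SKO-L80A+Ga, against 62.6 and 83.5 in SKO-L80A, with differences of -0.35 and -0.49. Pou5f1 had 11.0 and 14.1 in SKO-L80A+Ga, against 15.4 and 27.5 in SKO-L80A, with differences of -0.38 and -0.56. Each was therefore lower in both pairs, by a mean of -0.40 at Sox2, -0.42 at Klf4 and -0.47 at Pou5f1. From the lowest of the 12491 genes, these means ranked 83rd, 66th and 28th. SKO-L80A+Vc, which received the same 3 viruses and no Gadd45a, had 22.0 and 22.5 at Sox2, 39.9 and 39.7 at Klf4 and 8.59 and 10.4 at Pou5f1. Set against the same SKO-L80A library, its mean differences were -0.52 at Sox2, -0.38 at Klf4 and -0.63 at Pou5f1. Both comparisons share the SKO-L80A library, and the part of that library in these values was not tested. In Flag Sox2 had 2.73 and 5.12, Klf4 had 12.6 and 17.8 and Pou5f1 had 0.812 and 1.12, so most of the signal at Sox2 and Pou5f1 in both conditions is above the Flag level. How much of the signal came from viral inserts and how much from the cells' own genes was not tested. Fewer cells with virus, fewer inserts per cell, less open inserts and a change at the cells' own genes cannot be told apart in these values.

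Genes that the unmutated factors open were, as a group, slightly less accessible with Gadd45a. The rule applied to SKO against Flag gave 603 higher genes (4.83% of 12475) and 63 lower genes (0.505%). The 603 genes opened in SKO had a median of -0.11 in SKO-L80A+Ga against SKO-L80A (-0.06 in pair 1 and -0.15 in pair 2), beside -0.05 over the 12475 genes. Of these 603, 310 (51.4%) were below the median of all genes in both pairs and 63 (10.4%) above it, beside 41.7% and 13.5%. The 63 genes closed in SKO had a median of 0.14 (0.14 and 0.15), with 6 (9.52%) below and 36 (57.1%) above in both pairs. The 43 of them at the minimum signal had a lower median of 0.10 (0.12 and 0.13), with 3 below and 24 above in both pairs. Without the step to the median of all genes both medians were negative, at -0.36 for the opened and -0.11 for the closed genes. The signals of the 63 closed genes summed to 710 and 589 in SKO-L80A+Ga, against 697 and 712 in SKO-L80A. Their sum was thus lower in column 2 only. The contrast is between the groups and not a gain of signal in both pairs. After removal of the trend with signal the medians were -0.05 and 0.18. The lower signal of Sox2, Klf4 and Pou5f1 in SKO-L80A+Ga moves with this result, and its part in it was not tested.

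The mean difference followed the size of the SKO effect, while pair 1 was nearly flat over the middle groups. Genes at least 4-fold higher in SKO than in Flag (37 genes) had a median of -0.13 and those 2 to 4-fold higher (237 genes) -0.12. The 8582 genes within 0.25 of the median on the log2 scale had -0.05, the 68 genes 1.5 to 2-fold lower in SKO had 0.09 and the 19 genes at least 2-fold lower had 0.21. At the ends both pairs had this direction, with medians of -0.15 and -0.17 in the 37 genes and 0.16 and 0.30 in the 19 genes. As a group the 19 genes had a signal of 5.21 in SKO-L80A+Ga and 5.43 in SKO-L80A, both below the minimum signal. The lower end of this order therefore rests in part on genes under that minimum. The 68 genes had 8.97 in SKO-L80A+Ga and 9.98 in SKO-L80A, above it. Pair 1 had -0.03 in the 8582 genes, in the 2241 genes higher by less than 1.5-fold and in the 650 genes 1.5 to 2-fold higher. Pair 2 had -0.07, -0.10 and -0.13 in these 3 groups. The steps are far smaller than the spread of single genes, and the 603 genes ran from -0.72 to 0.35.

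**Figure D3:**
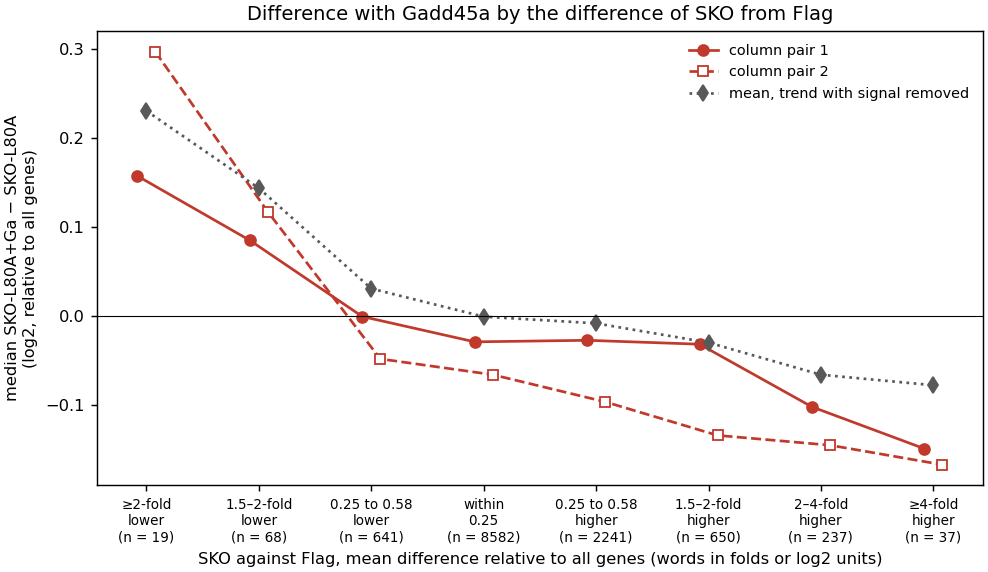
Median difference between SKO-L80A+Ga and SKO-L80A (log2, relative to the median of all genes) of genes grouped by their difference between SKO and Flag, for column pair 1 (filled circles), column pair 2 (open squares) and the mean after removal of the trend with signal (diamonds). The medians are 0.16 and 0.30 in the 19 genes at least 2-fold lower in SKO and -0.15 and -0.17 in the 37 genes at least 4-fold higher in SKO. As a group the 19 genes lie below the minimum signal in both SKO-L80A+Ga and SKO-L80A.

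The genes that SKO opened most were followed one by one; they were chosen by their rank in SKO against Flag, after values had been seen. E330017A01Rik, an uncharacterised gene, had 13.2 and 5.30 in SKO-L80A+Ga, against 12.1 and 12.1 in SKO-L80A, so that pair 1 (0.23) and pair 2 (-0.76) disagreed. Cyp3a13, a drug-metabolising cytochrome P450, had 10.8 and 7.83 in SKO-L80A+Ga, against 9.27 and 12.1 in SKO-L80A, again with opposite pairs. The mean was -0.14 at Ugt1a6a, a glucuronosyltransferase, -0.23 at the protease gene Prss38, 0.03 at Pipox, a peroxisomal oxidase, and -0.11 at F2, which encodes prothrombin. Epb42, a membrane protein of red cells, had 7.96 and 5.68 in SKO-L80A+Ga, against 11.2 and 10.4 in SKO-L80A, with differences of -0.38 and -0.46. These genes remained far above their Flag levels in both conditions; Epb42 had 0.878 and 1.52 and Pipox 1.43 and 2.12 in Flag.

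Among the genes with least signal in SKO relative to Flag, Nisch, which encodes the imidazoline-binding protein nischarin, had 10.8 and 10.0 in SKO-L80A+Ga, against 9.05 and 10.8 in SKO-L80A, with differences of 0.35 and 0.30. AL607142.1 had 4.67 and 3.02 in SKO-L80A+Ga, against 3.61 and 2.81 in SKO-L80A, and the T-cell cytokine gene Il2 had 4.10 and 4.31 in SKO-L80A+Ga, against 2.85 and 4.86 in SKO-L80A. Cntf, a neurotrophic factor, had 3.85 and 2.64 in SKO-L80A+Ga, against 4.10 and 3.37 in SKO-L80A, a mean of 0.04. Within this group A730049H05Rik had the most negative mean, -0.38, and Bco1 the most positive. Of the 63 genes, 43 reached the minimum signal in the comparison and the others had lower levels.

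Sets were also taken from libraries given 1 factor by their labels. The library labelled Oct4 carried signal at Sox2 as well, with 62.9 and 55.2, against 75.5 and 87.1 in the Sox2 library, 2.37 and 5.47 in Oct4-L80A and 2.73 and 5.12 in Flag. It therefore goes against its label, and sets that rest on it hold a difference in Sox2 signal along with that in Oct4; the part of each was not tested. The 45 genes that Sox2 alone opened against Flag (0.421%) had a median of -0.12 and the 97 lower ones (0.908%) 0.06. The 131 genes higher in the library labelled Oct4 than in Flag (1.16%) had -0.10 and the 44 lower ones (0.389%) 0.18, of which 26 were above and 4 below the median of all genes in both pairs. Of the 31 among these 44 at the minimum signal, 18 (58.1%) were above and 2 (6.45%) below. All genes at the minimum signal had 13.2% above and 42.0% below. Klf4 gave no such contrast, with -0.06 for its 303 higher genes (2.75%) and -0.05 for its 163 lower genes (1.48%). The knockdown of Brg1 in SKO gave 1 gene higher (0.00781%) and 0 lower (0.00%) than SKO, too few to follow. These sets and the SKO sets share the Flag library and many genes, and are not separate evidence. When Oct4-L80A was set against the library labelled Oct4, 93 genes were lower (0.828%), with a median of -0.07, beside -0.05 over all genes at the minimum signal, and -0.02 after removal of the trend with signal. Of these 93, 41 (44.1%) were below the median of all genes in both pairs, a share near the 42.0% of all genes at the minimum. The 10 genes higher in that comparison (0.0891%) had 0.17.

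The start regions of the SKO genes differed in letters from those of open genes at large, which is given as a description. An AP-1 match was found in 9.44% of 593 regions of genes higher in SKO and in 4.66% of 12494 regions of genes at the minimum signal, and a Sox match in 11.1% and 7.28%. For the octamer the shares were 3.88% and 2.92%, and for the Klf motif 26.1% and 23.0%. The median number of CpG dinucleotides was 12 in the regions of genes higher in SKO, 7 in those of genes lower in SKO and 21 in those of genes at the minimum signal. Genes in the 2nd lowest quartile of Flag signal had a median of 9. Their 4898 regions held an AP-1 match in 7.92%, a Sox match in 10.3%, an octamer in 3.65% and a Klf match in 22.3%. Except for Klf, these shares were nearer to those of genes higher in SKO, so the contrast depends on the genes set beside them.

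No pluripotency gene was called, and several of its late genes were below the minimum signal in both conditions. Of 42 genes on this list 16 reached the minimum signal, 0 were called, and their median was -0.01. Nanog, a core factor of pluripotent cells, had 0.433 and 0.236 in SKO-L80A+Ga, against 0.0918 and 0.483 in SKO-L80A, all far below the minimum. Esrrb, a nuclear receptor, had 3.01 and 2.73 in SKO-L80A+Ga, against 3.25 and 4.28 in SKO-L80A, and the zinc finger gene Sall4 had 2.32 and 2.70 in SKO-L80A+Ga, against 2.07 and 2.77 in SKO-L80A. Gdf3, a TGF-beta family ligand that SKO opens, had 7.99 and 6.32 in SKO-L80A+Ga, against 8.39 and 7.94 in SKO-L80A, and its mean was 0.06. Dppa5a, an embryonic stem cell gene, had 0.229 and 0.438 in SKO-L80A+Ga, against 0.184 and 0.237 in SKO-L80A. Zfp42, another such gene, had 0.842 and 0.898 in SKO-L80A+Ga, against 0.720 and 1.74 in SKO-L80A. Dppa3 and Lin28a were likewise below the minimum signal in both conditions.

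Epithelial genes, which are switched on early when fibroblasts reprogramme in the mesenchymal-to-epithelial transition, held 0 called genes. Of 35 genes 14 reached the minimum signal, with a median of -0.12, or -0.06 after removal of the trend with signal. The median was -0.03 in pair 1 and -0.16 in pair 2, beside -0.03 and -0.07 over all genes at the minimum, so that the distance from all genes rests on pair 2. Of the 14, 10 were below and 1 above the median of all genes in both pairs, beside 42.0% and 13.2% of all genes at the minimum. Over all 35 members the median was -0.03. Relative to the median of the 12491 genes at the minimum, 5 of the 35 (14.3%) were below and 12 (34.3%) above in both pairs. The shares of all 21965 genes were then 18.0% and 37.6%. The tight junction claudin Cldn3 had 8.58 and 6.48 in SKO-L80A+Ga, against 12.2 and 12.8 in SKO-L80A, with differences of -0.40 and -0.57. It ranked 21st from the lowest of all 12491 genes. Crb3, a polarity protein, had 11.7 and 10.0 in SKO-L80A+Ga, against 17.2 and 15.1 in SKO-L80A, a mean of -0.31, while the desmosomal gene Dsp had -0.12 and the keratin gene Krt8 -0.05. Cdh1, which encodes E-cadherin, was below the minimum, with 2.30 and 2.70 in SKO-L80A+Ga, against 2.08 and 2.80 in SKO-L80A, and so was Epcam, an epithelial adhesion molecule.

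The labelled cell type was checked with fibroblast genes, which were mostly open in both conditions. Of 50 genes 41 reached the minimum signal, 0 were called and the median was -0.01, beside -0.05 over all genes at that minimum. The fibrillar collagen gene Col1a1 had 21.9 and 15.8 in SKO-L80A+Ga, against 25.0 and 21.4 in SKO-L80A, and Twist1, a regulator of mesenchyme, had 12.1 and 16.8 in SKO-L80A+Ga, against 15.7 and 21.8 in SKO-L80A, with means of -0.06 and -0.11. Col5a2, another collagen, stood at the upper end with 0.30 in pair 1 and 0.31 in pair 2, and Prrx2, a mesenchymal homeobox factor, at the lower end with -0.15 and -0.41. Acta2, the actin of contractile fibroblasts, had a mean of -0.21 and the collagen cross-linker Lox 0.11. Thy1, a surface marker of fibroblasts, was below the minimum with 6.86 and 5.69 in SKO-L80A+Ga, against 6.79 and 5.44 in SKO-L80A. Of the marker lists of other cells, 9 of 28 muscle genes, 8 of 34 blood and endothelial genes, 12 of 44 genes of stratified epithelium and 19 of 35 neural genes reached the minimum signal, and their part in the differences was not tested. Among their defining markers Ptprc, Cdh5 and Spi1 of blood and endothelium, Myod1 and Des of muscle, Sox10 of neural crest and Krt5, Krt14 and Trp63 of stratified epithelium were below the minimum signal in both conditions. The neuronal genes Tubb3, Map2 and Neurod1 and the macrophage receptor gene Csf1r reached it; Csf1r had 16.2 and 10.0 in SKO-L80A+Ga, against 18.7 and 13.8 in SKO-L80A.

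The partners of Gadd45a were then taken by role. Of its family, interacting proteins and nucleotide excision repair partners, 16 of 17 genes reached the minimum signal, with a median of -0.02 and 0 called. Cdk1, the mitotic kinase that Gadd45a can inhibit, had 22.6 and 19.1 in SKO-L80A+Ga, against 21.5 and 21.3 in SKO-L80A, with differences of 0.17 and 0.25, and stood at the upper end of the list. Ccnb1, its cyclin, stood at the lower end with -0.26 and -0.17. Cdkn1a, which encodes the cell cycle inhibitor p21, had 28.3 and 21.7 in SKO-L80A+Ga, against 30.3 and 29.2 in SKO-L80A, a mean of -0.01. Genes of base excision repair and active DNA demethylation had a median of -0.10 over 24 of 27 genes (-0.05 after removal of the trend with signal). Of the 24, 13 (54.2%) were below and 2 (8.33%) above the median of all genes in both pairs, beside 42.0% and 13.2% of all genes at the minimum signal. Relative to the median of the 12491 genes at that minimum, 8 of all 27 members (29.6%) were below and 4 (14.8%) above. The shares of the 12491 genes were then 25.6% and 25.6%. Tet1, a methylcytosine dioxygenase, had 12.8 and 12.9 in SKO-L80A+Ga, against 16.7 and 19.5 in SKO-L80A, and its differences of -0.27 and -0.19 were the most negative mean there. Parp1, which senses strand breaks, had a mean of -0.22, Tet2 0.04 and Tdg 0.09.

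Genes for proteins of heterochromatin, the chromatin state the series is about, had medians near that of all open genes. For H3K9 methylation and HP1 proteins the median over 29 genes was -0.03. In both pairs 11 (37.9%) were below and 4 (13.8%) above, near the 42.0% and 13.2% of all genes at the minimum signal. Suv39h1, an H3K9 methyltransferase, had 23.4 and 18.9 in SKO-L80A+Ga, against 23.7 and 28.5 in SKO-L80A, a mean of -0.05, and Cbx5, which encodes HP1 alpha, had -0.10. The lowest means were -0.28 at the demethylase gene Kdm1a, which rested on pair 2, and -0.24 at Atrx, a remodeller. DNA methyltransferases and methyl-DNA readers had a median of -0.02 over 12 genes, with Uhrf1, which guides maintenance methylation, lowest at -0.23. Brg1 complex members had -0.06 over 25 genes.

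Stress and growth arrest genes were described because Gadd45a belongs to the DNA damage response. The p53 targets and growth arrest list had a median of -0.09 over 31 of 32 genes, with 0 called. In both pairs 16 (51.6%) were below and 4 (12.9%) above, beside 42.0% and 13.2% of all genes at the minimum signal. This lean depended on the median used. Relative to the median of the 12491 genes at the minimum signal, 10 of all 32 members were below and 10 above in both pairs. Its most negative mean, -0.44 at the cell death gene Bax, came from columns that disagreed, with 8.79 and 3.70 in SKO-L80A+Ga, against 8.83 and 9.83 in SKO-L80A. Cdkn2a, the Ink4a/Arf locus, had 15.7 and 14.3 in SKO-L80A+Ga, against 19.4 and 21.9 in SKO-L80A, with differences of -0.20 and -0.21, and Trp53 had a mean of 0.04. The list of integrated, oxidative and heat stress genes had a median of 0.00 over 26 genes, interferon response genes -0.01 over 16 and genes of secreted senescence and inflammation 0.02 over 13.

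The other lists also held 0 called genes, and the sign of 11 of the 22 list medians changed after removal of the trend with signal, to a range of -0.06 to 0.11. The housekeeping list had a median of -0.01 over 29 genes and AP-1 and TEAD factors -0.04 over 20. Markers of other lineages had -0.11 for endoderm (10 genes at the minimum signal), -0.10 for muscle (9), -0.05 for trophectoderm (12), -0.05 for stratified epithelium (12), -0.04 for blood and endothelium (8), -0.02 for cartilage and bone (11) and 0.05 for neural genes (19). The 3 germline genes at the minimum had -0.06. In the neural list the transcription factor gene Zic2 (0.24) was highest and Lhx2 (-0.21) lowest. In the cartilage and bone list Col2a1, the cartilage collagen, had 21.0 and 15.7 in SKO-L80A+Ga, against 28.8 and 27.5 in SKO-L80A, a mean of -0.38. The Hox genes, which record position along the body, had a median of 0.06 over the 14 of 40 at the minimum signal, and Hoxa10 was highest at 0.33. In both pairs 6 (42.9%) were above and 1 (7.14%) below, beside 13.2% and 42.0% of all genes at the minimum signal. Relative to the median of the 12491 genes at the minimum, 16 of all 40 Hox genes (40%) were above and 3 (7.5%) below. The shares of all 21965 genes were then 37.6% and 18.0%. Median differences by chromosome lay between -0.06 and -0.03, so no chromosome stood apart.

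**Figure D4:**
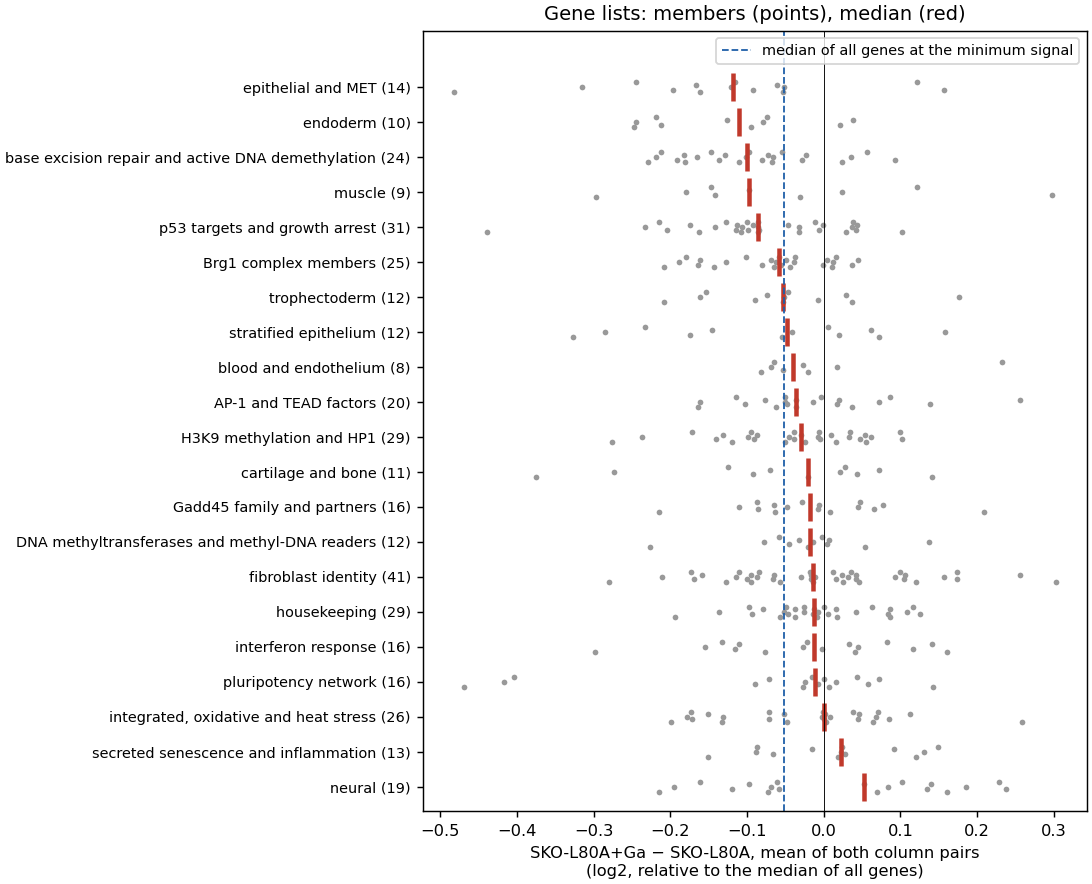
Mean difference between SKO-L80A+Ga and SKO-L80A (horizontal axis, log2, relative to the median of all genes) of the members at the minimum signal in each gene list, as grey points, with the list's median in red and the number of genes in brackets. The dashed blue line is the median of all genes at the minimum signal, -0.05; list medians lie between -0.12 (epithelial and MET) and 0.05 (neural).

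The median difference varied with the openness of the genes before the step to the median of all genes. When genes were ranked by their signal in Flag, which is in neither condition compared, the groups from the 6th to the 10th had medians of -0.12 to -0.14 in pair 1 and -0.43 to -0.52 in pair 2, before the step to the median of all genes. The lowest 3 groups, closed genes with a Flag signal under 1.35, had medians of 0.02, -0.09 and -0.04 in pair 1 and -0.00, 0.12 and -0.00 in pair 2. Open genes therefore had less signal in SKO-L80A+Ga than in SKO-L80A, and closed genes about the same. For the top 4th of genes by Flag signal the median signal was 26.2 and 23.6 in SKO-L80A+Ga, against 29.0 and 32.4 in SKO-L80A. For the bottom 4th it was 0.169 and 0.190 in SKO-L80A+Ga, against 0.183 and 0.163 in SKO-L80A. Relative to the median of all genes the bottom 4th appeared higher by 0.26, which shrank to -0.01 after removal of the trend with signal. The 1135 olfactory receptor genes (0.25, then -0.02) and the 329 vomeronasal receptor genes (0.26, then -0.01), families kept closed in most cells, had the same pattern.

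The values of closed genes are near the floor of the table: 598 genes shared the commonest value of column 1 in SKO-L80A+Ga and 577 that in SKO-L80A. A difference at closed genes between SKO-L80A+Ga and SKO-L80A was not detectable at this level of signal, and the depth of the libraries is unknown.

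**Figure D5:**
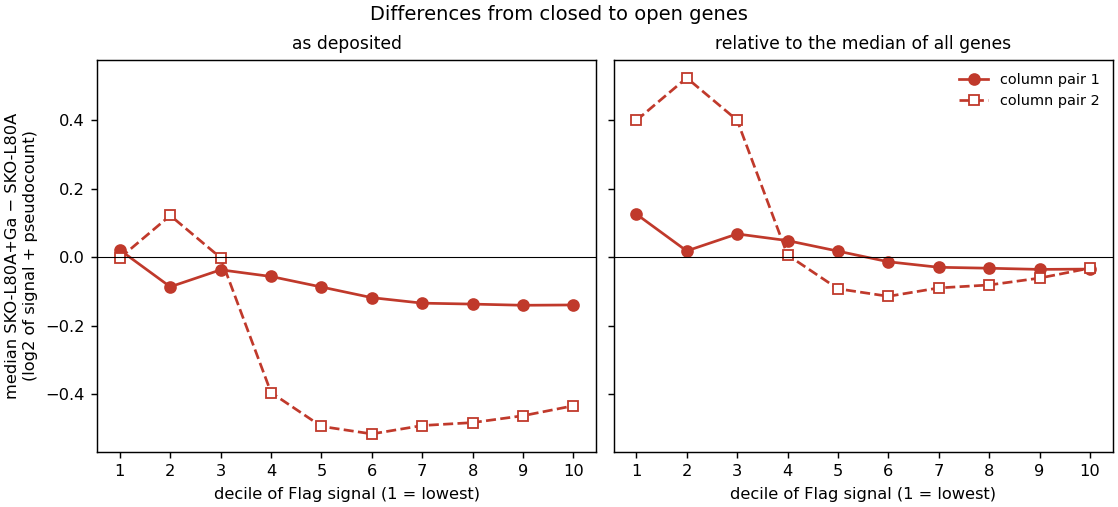
Median difference between SKO-L80A+Ga and SKO-L80A in 10 groups of genes ranked by Flag signal, as deposited (left) and with the median of all genes at 0 (right), on the log2 scale with pseudocount; filled circles are column pair 1 and open squares column pair 2. As deposited, the lowest 3 groups lie near 0 and the groups from the 6th upward at -0.12 to -0.14 in pair 1 and -0.43 to -0.52 in pair 2.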

How the data were processed

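The authors deposited 1 table of ATAC-seq signal (a density) for 21965 genes in 20 columns, 2 for each of 10 libraries; 0 value columns were left unmapped. Its window and its scaling are not stated. Tools listed without a role in the submitters' processing notes are Bowtie2 2.2.5, MACS2 2.1.0, bedtools 2.25.0, deepTools, DESeq2 1.22.2, Picard, SAMtools 1.3.1, Trimmomatic 0.35 and cutadapt 1.13, and the build there is mm10. Depth is unknown, so no counting interval was computed.

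Differences were taken between same-numbered columns of SKO-L80A+Ga and SKO-L80A as log2(signal + 0.138), the pseudocount being the 10th percentile of values above 0, with the median of all genes of that pair set to 0. A fold change on this scale understates the change of low genes. A gene was called when it differed at least 1.5-fold in both pairs and its mean signal in the higher condition reached 6.92. A second rule asked for 2-fold on the mean. The columns' numbers were checked: across 12491 genes the gap between column 2 and column 1 correlated at 0.653 between both libraries. Removal of the trend with signal used lowess (fraction 0.3, 3 iterations). Sets of genes were taken by the same rule from comparisons that share no library with this one.

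Named genes were the 12 with the largest mean difference in each direction, filled up from uncalled genes that moved the same way in both pairs, at most 4 called genes per list, and 1 fixed group of fibroblast, epithelial, factor, pluripotency, cell cycle and heterochromatin genes; list extremes and the genes ranked by SKO against Flag were added after their values were seen. The gene lists, rules and genes followed were chosen with earlier results of these data known. Symbols (20788 matched), gene starts and start regions came from RefSeq on GRCm38.p6, the assembly of build mm10. Python 3.11.15, pandas 2.3.3 and statsmodels 0.14.6 were used, and the procedure was tested on simulated data.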

Additional observations from a re-analysis of the deposited data

How the results depend on the processing

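The 2 lower genes became 1 with a pseudocount 4 times larger, with quantile normalisation, after a lowess removal of the trend with signal, and relative to the median of genes at the minimum signal, an alternative chosen after seeing the data; in these cases Sema4f was the gene called. Columns paired across numbers also gave 1, Pomgnt2. Not relative to the median there were 24. With no minimum signal 227 genes were higher and 23 lower, and 57 were 2-fold higher and 2 were 2-fold lower on the mean. Column pair 1 alone gave 13 higher and 18 lower genes, and column pair 2 alone 3 and 86. The cause of these changes was not tested. The median of genes higher in SKO than in Flag was -0.36 when not relative to the median. The median of genes lower in SKO than in Flag was -0.11 when not relative to the median, 0.13 with the larger pseudocount, 0.17 with quantile normalisation, 0.18 with lowess, 0.12 with crossed columns and 0.20 relative to the median of genes at the minimum signal. Of 59 named genes, 3 changed sign under lowess, 4 under quantile normalisation and 9 when not relative to the median; none of the 59 did so with the larger pseudocount. No paired analysis was possible because each condition has 1 sample and no test was made. With 1 library per condition and an unknown depth, the spread between samples cannot be given.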
